A study of Rattus norvegicus with 12 samples.

Results

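The G1 cyclins and the inhibitors of their kinases were followed in 12 poly(A) RNA-seq libraries of rat PAC1 cells, a line derived from pulmonary artery smooth muscle. The members were chosen by gene name: Ccnd1, Ccnd2, Ccnd3, Ccne1, Ccne2, Cdkn1a, Cdkn1b, Cdkn1c, Cdkn2a and Cdkn2b, 10 of the 33294 genes in the count table. All 10 had a row in the counts, and 9 of them were also in the deposited normalised table, which does not list Cdkn1c. The libraries form 4 groups of 3. D1 is differentiated PAC1 cells (PAC1-D, passaged weekly at 1:10) given a control siRNA, and P is the proliferative culture (PAC1-P, passaged more often, at 1:20) given the same kind of control. RBPMS KD1 is PAC1-D given an siRNA against Rbpms, and MBNL KD is PAC1-D given siRNAs against both Mbnl1 and Mbnl2, although the titles of those samples name MBNL1 alone. All 4 groups received 90 pmol of siRNA by reverse transfection and a repeat dose after 24 h, with harvest 48 h later according to the labels, while the study's methods give longer times. PAC1 is 1 cell line, the P and D1 cultures differ in passage regime, and control siRNA cells stand in for untreated cells.

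D-type cyclins (Ccnd1, Ccnd2, Ccnd3) bind Cdk4 and Cdk6 in G1 and E-type cyclins (Ccne1, Ccne2) bind Cdk2 at the entry to S phase, and both kinase complexes phosphorylate the RB protein, which releases E2F transcription factors. The Cip/Kip inhibitors p21, p27 and p57 (Cdkn1a, Cdkn1b, Cdkn1c) bind cyclin-CDK complexes, and the INK4 inhibitors p16 and p15 (Cdkn2a, Cdkn2b) bind Cdk4 and Cdk6 alone. Vascular smooth muscle cells are known for leaving and re-entering the cell cycle as they switch between a contractile and a proliferative state. Several of these proteins are set largely by degradation, which RNA levels do not show.

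Total counts lay between 80842635 and 90771289 per library, so that a count of 3, taken as the limit of detection, corresponds to 0.0331 to 0.0371 CPM (a count scaled to a common library total) and covers counting error only. Levels below are CPM scaled by the TMM factors of the 12 libraries, differences are log2 fold changes from edgeR's quasi-likelihood test on the 6 libraries compared, and p-values were adjusted by Benjamini-Hochberg over all genes tested. The study's methods speak of biological replicates in general and the labels do not say which cultures the libraries came from, so the p-values measure the spread between these libraries. Rbpms fell from 150.1 CPM in D1 to 37.5 in RBPMS KD1 (log2 fold change -2.0), against 9.49 in P, and Mbnl1 and Mbnl2 fell in MBNL KD by 2.07 and 1.75 on the log2 scale. The 6 smooth muscle markers summed to 8790 to 9230 CPM in D1, 176 to 186 in P, 4450 to 4620 in RBPMS KD1 and 7070 to 7170 in MBNL KD, most of it Acta2 and Tagln. All 6 fell in P and in RBPMS KD1, whereas in MBNL KD 4 fell and Myh11 and Cnn1 rose (log2 0.54 and 0.12). Over all settings, 1 to 2 of the 6 rose in MBNL KD. The 5 fibroblast markers summed to 14400 to 15100 CPM in D1, 17900 to 20000 in P, 20000 to 21300 in RBPMS KD1 and 13000 to 13400 in MBNL KD, nearly all of it Col1a1. By gene, 3 rose and Pdgfra fell in P (log2 -0.29), and 3 rose and Lum fell in RBPMS KD1 (-0.38). In MBNL KD 3 fell and 1 rose (0 to 1 over all settings), and Dcn went from 12.9 CPM in D1 to 5.45. Over all genes, 77.9%, 59.1% and 67.5% passed an adjusted p under 0.05 in these comparisons. The 5 endothelial markers summed to 0.488 to 0.551 CPM in D1, 2.34 to 2.89 in P, 1.14 to 1.22 in RBPMS KD1 and 0.628 to 1 in MBNL KD. Cdh5, Kdr and Tie1 were at or under the detection limit in the 3 PAC1-D groups, and Cdh5 was at 1.37 CPM in P. Vwf, at 0.457 CPM in D1, rose in P (log2 1.30) and in RBPMS KD1 (1.22). The 5 macrophage markers summed to 58.3 to 62.4 CPM in D1, 48.8 to 50.9 in P, 84.4 to 86.8 in RBPMS KD1 and 52.5 to 55.6 in MBNL KD, nearly all of it Cd14. Csf1r rose in MBNL KD, from 0.265 to 0.655 CPM (adjusted p = 0.00024), while Cd14 fell (log2 -0.17), and Adgre1 was at or under the limit in all 4 groups. These markers move with the groups, and their part in the results below was not tested.

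Within the D-type, E-type and Cip/Kip families, members moved in opposite directions between states. In P, Ccnd1 and Ccnd2 were higher and Ccnd3 lower than in D1, Ccne2 was higher and Ccne1 lower, and Cdkn1b was higher and Cdkn1a lower. Both INK4 genes were higher in P, the group that held most of the few Cdkn1c counts. Knockdown of Rbpms and of Mbnl1 and Mbnl2 raised Ccnd1 and Cdkn1a and lowered Ccne1 and Cdkn1b in each case, but Ccnd2, Ccnd3, Ccne2 and Cdkn2a moved in opposite directions in the 2 knockdowns.

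**Figure D1:**
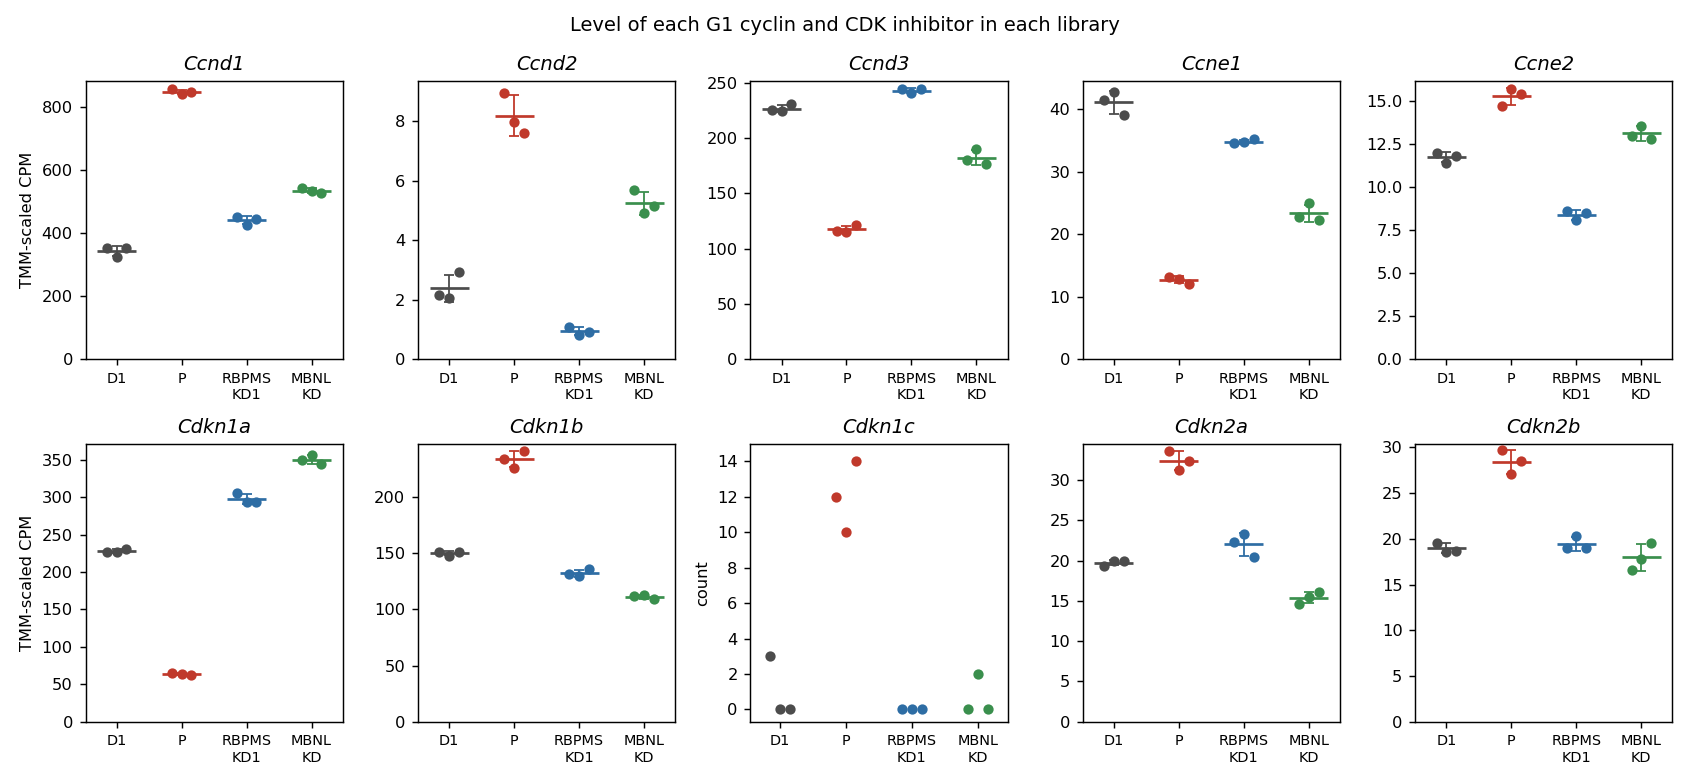
Level of each of the 10 members in the 12 libraries. The vertical axis is TMM-scaled CPM (for Cdkn1c, the raw count), points are libraries, the wide bar is the mean and the error bar the SD of the 3 libraries of a group (not drawn for Cdkn1c). Cdkn1a in P (62.7 to 65.6 CPM) lay below all other libraries, while Ccnd1 in P (844 to 857 CPM) lay above them.

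The D-type cyclins were examined first. Ccnd1, the cyclin most directly coupled to growth factor signals, was at 353, 324 and 353 CPM in the D1 libraries and at 857, 844 and 848 CPM in P. It was at 452, 427 and 444 CPM in RBPMS KD1 and at 543, 535 and 529 CPM in MBNL KD. The 4 groups did not overlap and stood in the order P, MBNL KD, RBPMS KD1, D1, with each neighbouring step past the test. Relative to D1, Ccnd1 rose 2.47-fold in P (log2 1.30 ± 0.027 SE, adjusted p = 2.3e-29), 1.29-fold in RBPMS KD1 (log2 0.36 ± 0.030, adjusted p = 1.9e-11) and 1.56-fold in MBNL KD (log2 0.64 ± 0.029, adjusted p = 4.8e-18).

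Ccnd2, a second D-type cyclin, was measured at much lower depth, with 71 to 843 counts per library. It was at 2.15, 2.07 and 2.92 CPM in D1, at 8.96, 7.98 and 7.62 CPM in P, at 1.09, 0.809 and 0.925 CPM in RBPMS KD1, and at 5.68, 4.94 and 5.14 CPM in MBNL KD. Each group lay apart from the others, with MBNL KD between P and D1 and RBPMS KD1 below D1. Ccnd2 rose by 1.78 ± 0.10 on the log2 scale in P (adjusted p = 6.7e-17) and by 1.15 ± 0.11 in MBNL KD (adjusted p = 3.7e-10). It fell by 1.33 ± 0.17 in RBPMS KD1 (log2 scale, adjusted p = 8e-08), and the direct comparison put RBPMS KD1 5.55-fold below MBNL KD (log2 -2.47 ± 0.12, adjusted p = 3.8e-17). Only 0.999% of the 16111 genes tested differed more between the 2 knockdowns. The D1 library of replicate 3 held the highest D1 value, and over 15 settings, which include leaving out each library, the RBPMS KD1 difference ranged from -1.45 to -1.14 and that of MBNL KD from 0.92 to 1.31.

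Ccnd3, the D-type cyclin best known from differentiating tissues, ran the other way. It was at 225, 224 and 230.3 CPM in D1 and at 116, 115 and 121 CPM in P. RBPMS KD1 held 244, 241 and 244 CPM, just above D1, and MBNL KD held 180.4, 189.6 and 176 CPM, between D1 and P. Ccnd3 fell by 0.95 ± 0.026 on the log2 scale in P (adjusted p = 4.9e-26) and by 0.31 ± 0.027 in MBNL KD (adjusted p = 1.4e-11), and it rose by 0.10 ± 0.025 in RBPMS KD1 (adjusted p = 0.00071). The P value stops short of the 2-fold threshold used by the study.

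Ratios of counts within 1 library do not depend on how libraries are scaled. The ratio of Ccnd1 to Ccnd3 counts was 1.51 ± 0.063 (SD, n = 3) in D1, 7.25 ± 0.22 in P, 1.82 ± 0.039 in RBPMS KD1 and 2.94 ± 0.11 in MBNL KD, and no 2 groups overlapped. The balance of these D-type transcripts thus lay 4.78-fold further towards Ccnd1 in P than in D1. The ratio of Ccnd2 to Ccnd3 counts was 6.68-fold higher in P and 2.76-fold higher in MBNL KD than in D1, and 2.7-fold lower in RBPMS KD1. Gene lengths were not used, so the ratios compare groups and not the absolute abundance of the genes in a pair.

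**Figure D2:**
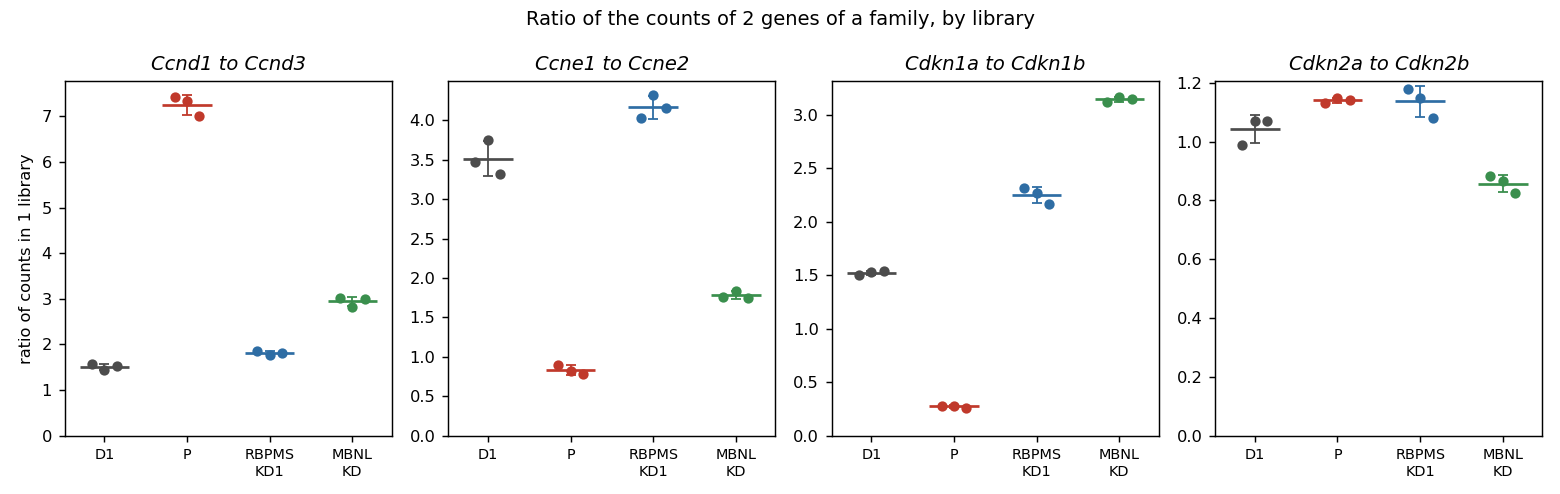
Ratio of the counts of 2 genes in each library, for 4 pairs. Points are libraries, wide bars are means and error bars SDs of 3 libraries, on linear axes from 0. In P the Ccnd1 to Ccnd3 ratio (7.0 to 7.42) was above, and the Ccne1 to Ccne2 (0.783 to 0.897) and Cdkn1a to Cdkn1b (0.261 to 0.282) ratios were below, those of all other libraries.

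Among the E-type cyclins, Ccne1 was highest in D1. It was at 41.5, 42.8 and 39.2 CPM in D1, at 13.2, 12.8 and 12.1 CPM in P, at 34.6, 34.8 and 35.2 CPM in RBPMS KD1, and at 22.8, 25.0 and 22.4 CPM in MBNL KD. The groups did not overlap, and P was lowest. Ccne1 fell by 1.70 ± 0.046 on the log2 scale in P (adjusted p = 3.2e-26), by 0.24 ± 0.038 in RBPMS KD1 (adjusted p = 4.3e-06) and by 0.81 ± 0.044 in MBNL KD (adjusted p = 3.2e-16).

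Ccne2, the other E-type cyclin, was at 11.98, 11.4 and 11.8 CPM in D1 and at 14.7, 15.7 and 15.4 CPM in P. RBPMS KD1 held 8.59, 8.06 and 8.49 CPM and MBNL KD 12.98, 13.6 and 12.8 CPM. It rose by 0.38 ± 0.055 on the log2 scale in P (adjusted p = 2.3e-07) and fell by 0.48 ± 0.061 in RBPMS KD1 (adjusted p = 9.2e-08). The rise in MBNL KD was 0.16 ± 0.057 (log2, adjusted p = 0.013), and it did not pass without D1 replicate 2 (0.13, adjusted p = 0.071) or without MBNL KD replicate 2 (0.14, adjusted p = 0.063). The ratio of Ccne1 to Ccne2 counts was 3.51 ± 0.22 (SD, n = 3) in D1, 0.832 ± 0.059 in P, 4.17 ± 0.15 in RBPMS KD1 and 1.78 ± 0.049 in MBNL KD, so that P was the only group with fewer Ccne1 than Ccne2 counts.

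Promoters from RefSeq (build GRCr8, 250 bases before the annotated start) matched 6 of the 10 members by symbol. That of Ccne1 is shown because this gene fell in all 3 comparisons with D1. Capitals mark the GC box letters GGGCGG, the kind of element that Sp1-family factors bind, searched on both strands. It lies at chr1:99927910-99928159 on the minus strand and is printed in the direction of transcription.
Ccne1: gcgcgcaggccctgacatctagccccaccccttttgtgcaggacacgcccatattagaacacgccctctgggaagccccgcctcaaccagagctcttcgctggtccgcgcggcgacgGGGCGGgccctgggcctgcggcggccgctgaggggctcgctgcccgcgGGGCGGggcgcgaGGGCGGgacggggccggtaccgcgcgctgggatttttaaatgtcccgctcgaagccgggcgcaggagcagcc
The matches start 133, 85 and 72 bases before the start. Of 33469 promoters of the same length, 30.5% held these letters. The E2F letters TTTGGCGC, TTTCCCGC, TTTCGCGC and TTTGCCGC were found in 1.73% of all promoters and in none of the 6 matched members, which says only that they are not in these windows.

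Cdkn1a, which encodes p21, an inhibitor known for halting the cycle under stress, was lowest in P. It was at 226, 227 and 231 CPM in D1 and at 65.6, 63.7 and 62.7 CPM in P. RBPMS KD1 held 306, 294 and 294 CPM and MBNL KD 349.8, 357 and 344 CPM. Both knockdowns lay above D1 and P lay far below it. Cdkn1a fell by 1.84 ± 0.027 on the log2 scale in P (adjusted p = 6.5e-34), 3.58-fold, and rose by 0.39 ± 0.025 in RBPMS KD1 (adjusted p = 1.6e-13) and by 0.62 ± 0.025 in MBNL KD (adjusted p = 3.3e-19).

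Cdkn1b, which encodes p27, moved against Cdkn1a. It was at 151, 148 and 151 CPM in D1, at 234, 226 and 240.4 CPM in P, at 132, 129 and 136 CPM in RBPMS KD1 and at 112, 113 and 109 CPM in MBNL KD. P was above and both knockdowns below D1, with no overlap. Cdkn1b rose by 0.63 ± 0.026 on the log2 scale in P (adjusted p = 4.8e-21), and fell by 0.18 ± 0.027 in RBPMS KD1 (adjusted p = 1.2e-06) and by 0.43 ± 0.023 in MBNL KD (adjusted p = 3e-16). The ratio of Cdkn1a to Cdkn1b counts was 1.52 ± 0.023 (SD, n = 3) in D1, 0.274 ± 0.012 in P, 2.26 ± 0.079 in RBPMS KD1 and 3.15 ± 0.026 in MBNL KD. It was therefore 5.55-fold lower in P and 2.07-fold higher in MBNL KD than in D1.

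Cdkn1c, the imprinted gene of p57, was close to the limit of detection. Its counts were 3, 0 and 0 in D1, 12, 10 and 14 in P, 0, 0 and 0 in RBPMS KD1, and 0, 2 and 0 in MBNL KD. Every P library was above every other library. The P to D1 ratio of summed counts, scaled by total counts without the TMM factors, was 12.4, with a 95% counting interval of 3.92 to 63.1. All D1 counts came from replicate 1. Against MBNL KD, whose counts were all under the limit of detection, the lower limit of the counting interval of the ratio was 4.61. Against RBPMS KD1, P held 36 counts in all and RBPMS KD1 held 0, for which the lower limit of the 95% counting interval of the ratio was 9.63. These intervals take counts as independent and leave out the spread between libraries. Mates may have been counted separately, in which case the intervals are too narrow. The gene passed the filter on low counts only through P, so its test is not used as support. Its fitted log2 difference between P and D1 ranged from 0.92, after quantile normalization, to 6.55 over the 12 settings that could be fitted. It was too low to be tested between the PAC1-D groups, where no difference was detectable at this depth.

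The gene order of RefSeq (GRCr8, used for neighbours only) places Cdkn1c between the lncRNA LOC120099963, with at most 5 counts in any library, and Slc22a18, a transporter gene of the same imprinted cluster. Slc22a18 was at 4.88 CPM in D1, 7.58 in P, 5.91 in RBPMS KD1 and 3.87 in MBNL KD, and it rose by 0.63 on the log2 scale in P (adjusted p = 1.5e-08). Of the 9 imprinted neighbours tested in P against D1, 3 were higher (Slc22a18, Ascl2 and H19) and 4 lower. Over all settings, 2 to 3 were higher and 3 to 6 lower. Among all genes, 77.9% passed (40.4% higher, 37.6% lower). H19, an imprinted RNA of the adjoining domain, was at 0.0231 CPM in D1, under the limit of detection, 0.971 in P and 0.229 in MBNL KD. It passed the filter only through the groups where it is high, so its call is not used as support. Phlda2, an imprinted growth inhibitor, rose by 1.03 on the log2 scale in RBPMS KD1 (adjusted p = 3.6e-07) but was lower in P (-0.57, adjusted p = 0.0072). The fall in P did not pass without D1 replicate 2 (-0.45, adjusted p = 0.054), and it was -1.04 after quantile normalization.

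Cdkn2a and Cdkn2b lie close together, with the annotated gene LOC134479006 between them in RefSeq (GRCr8), which is not analysed here. The Cdkn2a row covers both the p16 and the Arf transcript of the locus, which gene counts do not separate. Cdkn2a was at 19.4, 20.0 and 19.9 CPM in D1, at 33.6, 31.2 and 32.4 CPM in P, at 22.3, 23.3 and 20.5 CPM in RBPMS KD1 and at 14.7, 15.45 and 16.1 CPM in MBNL KD. The order was P, RBPMS KD1, D1, MBNL KD, with no overlap. Cdkn2a rose by 0.71 ± 0.042 on the log2 scale in P (adjusted p = 1.9e-16) and fell by 0.36 ± 0.051 in MBNL KD (adjusted p = 3.1e-07). The rise of 0.16 ± 0.049 in RBPMS KD1 (adjusted p = 0.0067) did not pass without RBPMS KD1 replicate 2 (0.12, adjusted p = 0.066).

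Cdkn2b, the gene of p15, was at 19.6, 18.6 and 18.7 CPM in D1 and at 29.7, 27.04 and 28.5 CPM in P. RBPMS KD1 held 18.98, 20.3 and 18.9 CPM and MBNL KD 16.6, 17.8 and 19.5 CPM, and both overlapped D1. It rose by 0.58 ± 0.045 on the log2 scale in P (adjusted p = 2.1e-13). The difference from D1 was 0.04 ± 0.048 in RBPMS KD1 (adjusted p = 0.55) and -0.08 ± 0.054 in MBNL KD (adjusted p = 0.22, but 0.032 without MBNL KD replicate 3), and the knockdowns differed from each other by 0.12 ± 0.056 (adjusted p = 0.069). The ratio of Cdkn2a to Cdkn2b counts stayed between 0.824 and 1.18 in all 12 libraries, a narrower spread over groups than in the other pairs, and was lowest in MBNL KD (0.858 ± 0.030, SD, n = 3).

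The promoters of both INK4 genes are shown because the genes share a locus and both rose in P. They lie on the minus strand of GRCr8, at chr5:109107957-109108206 for Cdkn2a and at chr5:109134856-109135105 for Cdkn2b. Whether the Cdkn2a window precedes the start of the p16 or of the Arf transcript was not determined. Capitals mark GC boxes (GGGCGG on either strand) and, in Cdkn2b, the palindromic cyclic AMP response element TGACGTCA.
Cdkn2a: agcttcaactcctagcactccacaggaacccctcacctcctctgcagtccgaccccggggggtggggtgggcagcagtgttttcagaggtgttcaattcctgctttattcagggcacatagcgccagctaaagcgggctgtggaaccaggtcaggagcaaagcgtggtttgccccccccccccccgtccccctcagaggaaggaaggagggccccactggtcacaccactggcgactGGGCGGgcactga
Cdkn2b: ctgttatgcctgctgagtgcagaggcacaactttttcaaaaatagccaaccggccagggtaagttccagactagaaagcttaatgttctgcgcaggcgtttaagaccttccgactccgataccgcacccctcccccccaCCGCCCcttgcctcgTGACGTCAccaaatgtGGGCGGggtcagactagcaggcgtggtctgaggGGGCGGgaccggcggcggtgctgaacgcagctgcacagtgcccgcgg
Cdkn2b held 3 GC boxes, starting 111, 80 and 47 bases before the start, and the response element at 96, which 1.59% of all promoters held. Cdkn2a held 1 GC box, at 13.

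The lncRNA LOC102552523, next to Cdkn2b, was at 1.04 CPM in D1 and 1.89 in P (log2 0.85 ± 0.18, adjusted p = 7.8e-05). Further along on the same side, LOC120102910, which was singled out after its values were seen, was at 1.25, 1.68 and 1.11 CPM in D1 and at 5.76, 6.18 and 6.31 CPM in P. It rose by 2.17 ± 0.12 on the log2 scale in P (adjusted p = 1.8e-17) and fell by 1.03 ± 0.21 in MBNL KD (adjusted p = 9.2e-05), with -0.03 ± 0.18 in RBPMS KD1 (adjusted p = 0.92). Mtap, the metabolic enzyme gene on the other side, rose by 0.49 in P and 0.21 in MBNL KD and fell by 0.17 in RBPMS KD1, on the log2 scale. Elavl2, an RNA-binding protein gene listed as a further neighbour, fell by 0.64 in P and by 1.12 in RBPMS KD1 (adjusted p = 8.9e-07). Whether the counting used strand is not stated, so reads of overlapping transcripts cannot be told apart here.

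**Figure D3:**
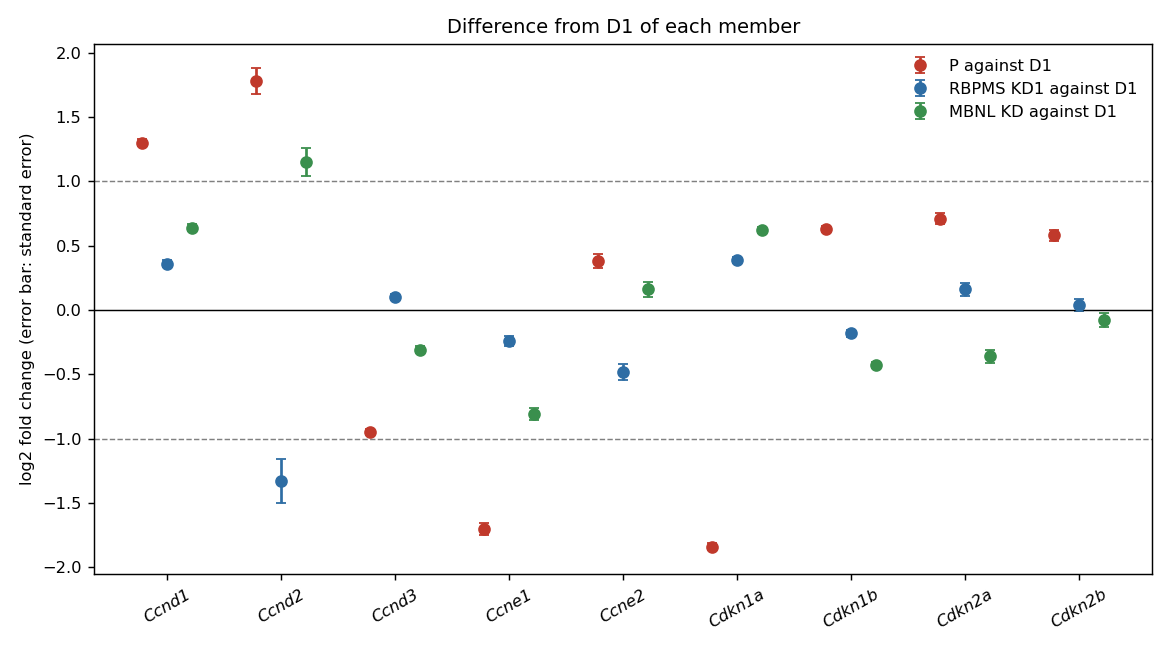
Log2 fold change of 9 members in P, RBPMS KD1 and MBNL KD against D1. Points are edgeR estimates, error bars standard errors, and dashed lines mark a log2 fold change of 1 in either direction. Cdkn1c is left out because of its low counts. Ccnd2 shows the widest span, from -1.33 in RBPMS KD1 to 1.78 in P.

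Counted together without Cdkn1c, the 9 other members all passed an adjusted p under 0.05 in P against D1, 6 higher and 3 lower, where 77.9% of the 16814 genes tested passed (40.4% higher, 37.6% lower). With a log2 fold change beyond 1 as well, 4 of the 9 passed (Ccnd1 and Ccnd2 higher, Ccne1 and Cdkn1a lower), against 27.6% of all genes (16.4% higher, 11.2% lower). The P and D1 libraries did not overlap in these 9 members, and in 79.1% of all genes. The median absolute log2 fold change was 0.95 for the 9 members and 0.46 for all genes. With Cdkn1c, which entered the test only through P, the counts were 10 and 5 and the median 1.13. In bulk RNA, a lower level in every cell and fewer cells that hold the transcript cannot be told apart.

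In RBPMS KD1 against D1, 9 members were tested. Of these, 4 were higher, 4 lower and 1 (Cdkn2b) passed neither way, where 59.1% of the 15904 genes tested passed (29.5% in each direction). Ccnd2, lower, was the 1 member past the fold threshold, which 4.68% of all genes passed (1.62% lower), and 8 members did not overlap, where 63.4% of genes did not. The median absolute change was 0.24 for the members and 0.23 for all genes on the log2 scale. In MBNL KD against D1 the counts were again 4 higher, 4 lower and 1 neither (67.5% of the 16053 genes tested passed, 33.8% higher and 33.7% lower), with median absolute changes of 0.43 and 0.31. Ccnd2, higher, was again the 1 member past the fold threshold, which 10.2% of genes passed (6.1% higher), but it was at 0.92, short of that threshold, with limma on the deposited normalised values. In this comparison 8 members did not overlap, where 70.3% of genes did not. The 3 comparisons share the D1 libraries, so that their values are given side by side and not as independent evidence of each other.

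Set directly against each other, the knockdowns differed in 8 of 9 members tested at an adjusted p under 0.05, where 69.5% of 16111 genes did (34.5% higher and 35.1% lower in RBPMS KD1), and the libraries did not overlap in 8 members and 71.8% of genes. Ccnd3 (log2 0.42 ± 0.028), Ccne1 (0.58 ± 0.044), Cdkn1b (0.25 ± 0.026) and Cdkn2a (0.52 ± 0.055) were higher in RBPMS KD1. Ccnd1 (-0.27 ± 0.027), Ccne2 (-0.64 ± 0.062) and Cdkn1a (-0.23 ± 0.027) were lower there, in addition to Ccnd2. With the fold threshold, 1 member differed (Ccnd2, lower), against 11.9% of genes (5.88% lower). Again without Cdkn1c, P differed from RBPMS KD1 in all 9 members, 4 of them past the fold threshold, where 79.4% and 29.1% of genes did. P differed from MBNL KD in all 9, 3 of them past the fold threshold, where 81.5% and 32.9% of genes did. In both of these comparisons the 9 members were without overlap, as were 80.5% and 83% of genes.

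The kinases that the cyclins bind did not move as 1 group. Cdk4 was at 211 CPM in D1, 163 in P, 178 in RBPMS KD1 and 267 in MBNL KD, and Cdk2 at 35.8, 28.3, 27.9 and 42.3 CPM in the same order. Both fell in P (log2 -0.37 and -0.35) and in RBPMS KD1 (-0.25 and -0.36) and rose in MBNL KD (0.34 and 0.24). Cdk6 ran the other way, from 119.7 CPM in D1 to 249.5 in P (log2 1.05 ± 0.027, adjusted p = 4.8e-27), 130.1 in RBPMS KD1 (0.12) and 87.3 in MBNL KD (-0.45). Of the 7 G1 kinases and activators, 2 rose and 4 fell in P, 1 rose and 3 fell in RBPMS KD1, and 5 rose and 2 fell in MBNL KD. Over all genes, 77.9%, 59.1% and 67.5% passed in these comparisons. The other INK4 genes, Cdkn2c and Cdkn2d, fell by 0.62 and 0.72 in P, and Cdkn2c fell by 0.27 in RBPMS KD1 and by 0.79 in MBNL KD, all on the log2 scale. Cdkn2d was at -0.12 in RBPMS KD1 (adjusted p = 0.049), a call that was lost with DESeq2 (adjusted p = 0.068), without D1 replicate 1 (-0.06) or RBPMS KD1 replicate 2 (-0.09) and under other settings, and at -0.12 in MBNL KD (adjusted p = 0.074). Both thus moved against Cdkn2a and Cdkn2b in P.

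Rb1, the gene of the RB protein itself, was at 36.8 CPM in D1, 43.0 in P, 37.1 in RBPMS KD1 and 16.9 in MBNL KD. It rose by 0.22 ± 0.036 on the log2 scale in P and fell by 1.12 ± 0.043 in MBNL KD (adjusted p = 1e-19), with 0.01 ± 0.036 in RBPMS KD1 (adjusted p = 0.76). Among the 13 RB family and E2F genes, 6 rose and 5 fell in P, 2 rose and 9 fell in RBPMS KD1, and 4 rose and 7 fell in MBNL KD, beside 77.9%, 59.1% and 67.5% of all genes that passed (37.6%, 29.5% and 33.7% lower). The falls past the fold threshold were E2f5, an E2F of the repressor class (log2 -2.60), and Tfdp2, a DNA-binding partner of E2Fs (-1.26), in P, and Rb1, the atypical repressor E2f7 (-1.45) and Tfdp2 (-1.36) in MBNL KD. Of 8 genes for the turnover of cyclins and inhibitors, Usp28, a deubiquitinase, passed the fold threshold (log2 1.32 in P), and in all 3 rose and 5 fell in P, 0 rose and 6 fell in RBPMS KD1, and 2 rose and 4 fell in MBNL KD, beside the same shares of all genes.

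The 22 proliferation genes, which include S-phase and mitotic genes, fell almost throughout in both knockdowns, where Ccnd1 rose. In P, 14 rose, 3 fell (Mcm4, Cdc6 and Rrm2, log2 -0.06, -0.22 and -0.25) and 5 did not pass (Ccna2, Cdk1, Mcm7, Top2a and Foxm1, log2 -0.02 to 0.05), with a median of 0.21, where 40.4% of all genes rose and 37.6% fell. In RBPMS KD1, 21 of 22 fell, the exception being Mcm2 (0.01, adjusted p = 0.74), with a median of -0.28, and in MBNL KD all 22 fell, with a median of -0.67. Over all genes 29.5% fell in RBPMS KD1 and 33.7% in MBNL KD. Mki67, the proliferation marker Ki-67, was at 239 CPM in D1, 343 in P, 176 in RBPMS KD1 and 127 in MBNL KD. The largest falls in MBNL KD were the helicase subunit gene Mcm6 (log2 -1.92), the ribonucleotide reductase gene Rrm2 (-1.72), the transcription factor gene Mybl2 (-1.51) and the mitotic kinase gene Plk1 (-1.25). In its EdU assays, the study reported more proliferation in P cells and after RBPMS knockdown, and no effect of knocking down MBNL1 and MBNL2. The falls in RNA in the knockdowns are therefore not a measure of proliferation, and the difference was not tested.

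Of 10 genes known as regulators of the members, 2 rose and 7 fell in P, where 40.4% of all genes rose and 37.6% fell. The falls past the fold threshold were Mycn (log2 -4.16), Myc (-2.60), Foxo1 (-1.14), a forkhead factor known to act on Cdkn1b, and Bmi1 (-1.04), a Polycomb protein known to repress the Cdkn2a locus. The 2 that rose were Foxo3, another forkhead factor (0.73), and Ctnnb1 (0.45). No link between these genes and the members was tested. Myc, an activator of cell growth, was at 76.2 CPM in D1 and 12.6 in P. In RBPMS KD1, 1 rose and 6 fell, where 59.1% of all genes passed. In MBNL KD, 0 rose and 8 fell, where 67.5% of all genes passed, with Mycn (-1.29) and the Polycomb gene Cbx7 (-1.09) past the fold threshold. Over all settings, 1 to 2 of the 10 were past that threshold in MBNL KD.

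**Figure D4:**
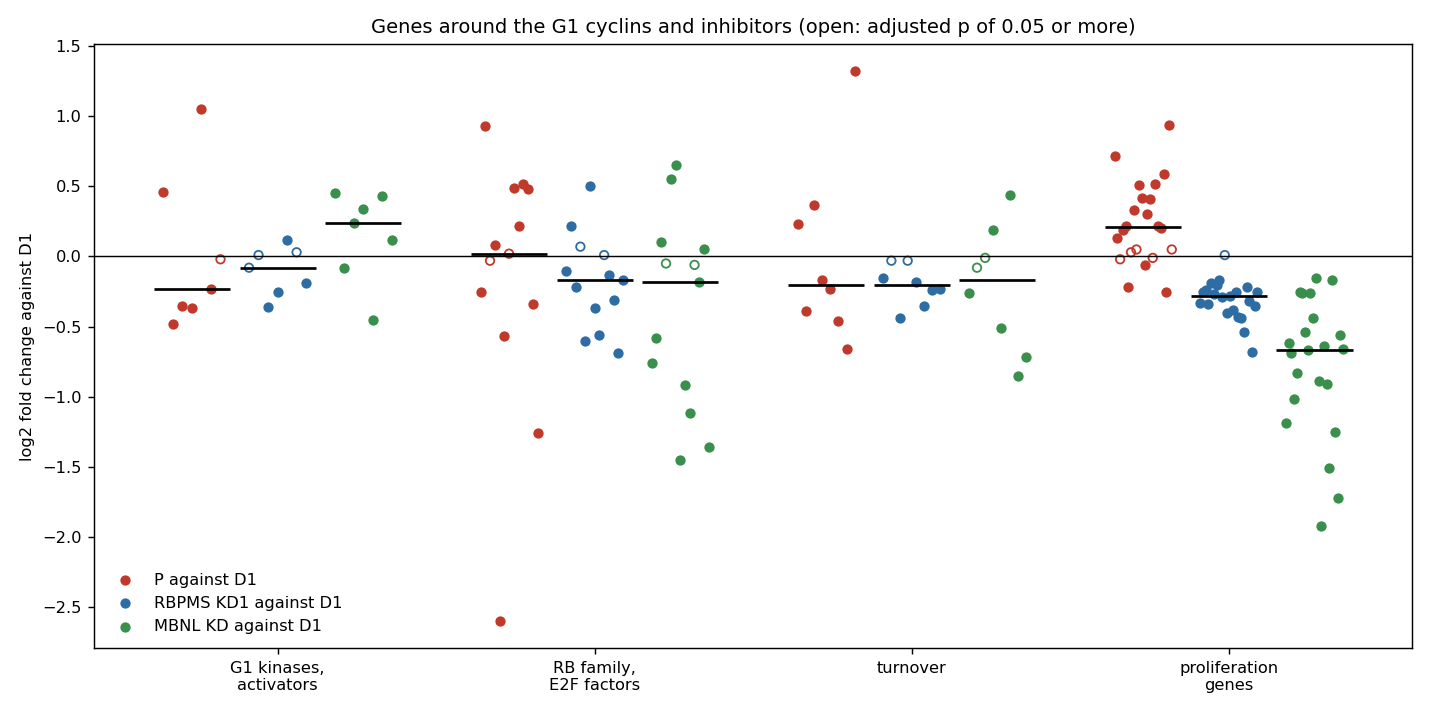
Log2 fold changes against D1 of 4 lists of genes around the members. Points are genes, filled where the adjusted p was under 0.05, and black bars are medians. The median of the proliferation genes was above 0 in P (0.21), with some genes below it, and below 0 in RBPMS KD1 (-0.28) and MBNL KD (-0.67).

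For the 3 members with the widest range over groups, the genes with the most similar profile were sought by Pearson's r of log2 CPM over the 12 libraries, among genes with a mean of at least 100 counts. These values describe 4 groups of libraries and carry no test. Ccnd2 was nearest to Eif2s1, a translation initiation factor (r = 0.9935), Ddx52 (0.9921) and Set (0.9917). Their range was far smaller than that of Ccnd2, as Eif2s1 went from 105 CPM in RBPMS KD1 to 163 in P. Cdkn1a was nearest to Armcx2 (0.9991), which was at 112 CPM in D1, 29.8 in P, 147 in RBPMS KD1 and 167 in MBNL KD, followed by Il1rapl1 (0.9986) and Dnajc14 (0.9985). Cdkn1c, at its few counts, was nearest to Zfp954 (0.9748), Draxin (0.9652) and Ttll4 (0.9644).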

How the data were processed

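Rat PAC1 cells were sequenced as 12 poly(A) libraries in 4 groups of 3, grouped by the labels. The authors subsampled the reads to an equal number per library, aligned them with STAR 2.7.11b to mRatBN7.2 and made the deposited counts per gene with featureCounts and the RefSeq annotation. The second deposited table holds signal values, which the authors made from the counts by noise filtering with noisyR and quantile normalization. Strand and mate settings are not given in the sources used here. Total counts exceeded the depth to which the study subsampled the reads, and even counts were 2.23 to 2.55 times as frequent as odd ones. Both would follow if mates were counted separately, and halved counts were tried.

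Counts were analysed with edgeR 4.0.16 in R 4.3.3: filterByExpr on the 6 libraries compared, TMM, the quasi-likelihood test and Benjamini-Hochberg adjustment over all genes tested. Calls were made at an adjusted p under 0.05, and with a log2 fold change beyond 1. Standard errors are the log2 fold change over the square root of F. The total counts, 80842635 to 90771289 per library, set the detection limit of 3 counts. The smallest exact permutation p of 3 against 3 libraries is 0.1, so none was used. Alternatives were DESeq2 1.42.0, limma 3.58.1 on the normalised values, other scalings, filters, 1 fit of 12 libraries, a replicate block and leaving out each library. The script was tested on simulated data.

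The members and gene lists were chosen with earlier results of these data known. Named were all members, Cdk2, Cdk4, Cdk6, Rb1 and Mki67, up to 4 genes per list and comparison with the largest change past both thresholds, the nearest neighbours of Cdkn1c, Cdkn2a and Cdkn2b, and the 3 genes most similar to each of the 3 most variable members. Genes that spell out a count of 5 or fewer, and the marker genes and Mtap, were named after their values were seen. Promoter sequences are from RefSeq GRCr8, another build than that of the counts. 1 gene, and the lists and sequence matches that rest on it, are not reported here.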

Additional observations from a re-analysis of the deposited data

Results flagged for a closer look

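The effects of the 2 knockdowns, each relative to the same D1 libraries, differed for 8 members in the direct comparison of RBPMS KD1 with MBNL KD (edgeR quasi-likelihood test, Benjamini-Hochberg adjusted). Ccnd2 differed by -2.47 on the log2 scale (RBPMS KD1 minus MBNL KD, adjusted p = 3.8e-17), with opposite signs against D1. Ccne2 differed by -0.64 (adjusted p = 1.6e-10), Ccnd3 by 0.42 (adjusted p = 2.6e-14) and Cdkn2a by 0.52 (adjusted p = 9.3e-10), also with opposite signs. Ccne1 differed by 0.58 (adjusted p = 5.5e-13), Ccnd1 by -0.27 (adjusted p = 1.8e-10), Cdkn1b by 0.25 (adjusted p = 4.6e-10) and Cdkn1a by -0.23 (adjusted p = 8.3e-09), each with the same sign in both knockdowns and the larger change in MBNL KD.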

How the results depend on the processing

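Of 846 alternative values for single members, 839 kept their direction and their side of an adjusted p of 0.05, 4 no longer passed it, 3 newly passed it and 0 reversed. Crossings of the fold threshold are not in that tally. The number of members past both thresholds in MBNL KD against D1 was 1, and 0 with limma on the deposited normalised values, where Ccnd2 was at 0.92 on the log2 scale, and the cause was not tested. The number of listed genes other than members, knockdown targets and cell type markers past both thresholds in RBPMS KD1 against D1 was 2 (Phlda2 and Elavl2), and 1 after quantile normalization, where Phlda2 was at 0.92. Phlda2 was also under the fold threshold with limma (0.78), without D1 replicate 1 (0.94) and without RBPMS KD1 replicate 2 (0.99), and Elavl2 without RBPMS KD1 replicate 2 (-0.97). Leaving out each library in turn gave 7 to 9 members at an adjusted p under 0.05 in MBNL KD against D1, 7 to 8 in RBPMS KD1 against D1 and 8 to 9 between the knockdowns. The same fits left the count of members past both thresholds at 5 in P against D1, Cdkn1c included, and at 1 in each knockdown. Over all settings it was 4 to 5 in P against D1, 4 to 6 in P against RBPMS KD1 and 3 to 4 in P against MBNL KD. Besides the losses given with the results, Cdkn1c no longer passed in P against D1 after quantile normalization (0.92, adjusted p = 0.17), and Cdkn2b passed between the knockdowns without RBPMS KD1 replicate 3 (0.15, adjusted p = 0.046) or MBNL KD replicate 3 (0.19, adjusted p = 0.0056). MBNL KD replicate 3 had the lowest total count and differed most from its group (chi-square per degree of freedom 12.9 from both others, against 3.69 to 7.73 in all other pairs of a group). Cdkn1c was not tested with a minimum of 10 counts, with limma or with halved counts. Another scaling moved the median of all genes by at most 0.059 in log2.

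Same-numbered replicates did not deviate together (correlations of deviations from -0.0344 to 0.0674). The labels do not say whether same-numbered libraries were prepared together, and these correlations cannot decide it. With a replicate block, 5 members, Cdkn1c included, passed both thresholds in P against D1, 1 in RBPMS KD1 and 1 in MBNL KD, as without it.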
